A study of Mus musculus with 6 samples.

Results

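Arterial and venous identity markers are genes that separate the endothelial cells (ECs) of arteries from those of veins. Here they are 9 genes of the deposited count table, chosen by name: the arterial genes *Efnb2*, *Gja4*, *Gja5*, *Bmx*, *Sema3g* and *Gkn3* and the venous genes *Nr2f2*, *Ephb4* and *Lcn2*. Each name matched a single row among the 56748 genes of the table, and all 9 were among the 13107 genes that passed the filter on low counts. They were measured by bulk RNA-Seq of ECs sorted from the spinal cord of mice at P16, with 1 library from each of 3 control and 3 TDP-43iΔEC mice. Control mice had the genotype Tardbpflox, a *Tardbp* gene with loxP sites around exon 3, and carried no Cre. TDP-43iΔEC mice were Cdh5(PAC)-CreERT2;Tardbpflox, in which the *Cdh5* promoter drives a tamoxifen-dependent Cre in ECs. Both genotypes received tamoxifen (1 mg/mL) from P5 to P7, were on a C57BL/6 background and came in mixed sexes, so the comparison also sets mice with Cre against mice without it.

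Arteries and veins carry different EC programs that are set early in development and kept by genetic signals and blood flow. Notch signaling maintains the arterial program, in which the ligand ephrin-B2 (*Efnb2*) sits on arterial ECs and faces its receptor EphB4 (*Ephb4*) on venous ECs. The nuclear receptor COUP-TFII (*Nr2f2*) holds Notch signaling down in veins. In the CNS most ECs are those of capillaries, and arterial and venous ECs are the smaller populations at either end of the capillary bed. The cells of each mouse were pooled without a separation of arteries, capillaries and veins, and in such bulk samples fewer cells of a type and less RNA per cell cannot be told apart.

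None of the 9 markers changed beyond the spread between mice after adjustment over all genes tested. All 6 arterial markers had a fitted log2 fold change below 0 in TDP-43iΔEC mice, from -1.28 for *Bmx* to -0.24 for *Sema3g* (median -0.60), but the control and TDP-43iΔEC libraries overlapped for every one of them. In edgeR and DESeq2, *Gja5* (1.33 and 1.38) and *Bmx* (0.057 and 0.075) were fitted above 0, and the arterial median was -0.27 and -0.23. The venous markers *Ephb4* and *Lcn2* were higher in all 3 TDP-43iΔEC libraries than in all 3 control libraries, and *Nr2f2* overlapped. These 2 are 22.2% of the 9 markers, and 7.93% of all genes tested were higher in this way. In either direction it was 15.0% of all genes tested. In limma with Benjamini-Hochberg adjustment, 0 of the 9 passed the threshold of 0.05 (0.137% of all genes tested did, 0.0305% higher and 0.107% lower), and only *Lcn2* had an unadjusted p under 0.05, as did 9.27% of all genes. In edgeR's quasi-likelihood test 0 of the 9 passed, with or without adjustment (0.00% and 6.47% of all genes did), and in DESeq2's Wald test likewise 0 (1.88% and 8.49%). A fitted value below 0 was found for 50.7% of all genes tested, whose median log2 fold change was -0.02.

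The libraries held 25704871 to 47270654 counts. With 3 counts as the limit of detection, the smallest level that could be seen ranged from 0.0635 to 0.117 CPM (counts scaled to the library total), a limit that covers counting error only. *Tardbp*, the deleted gene, had 1973, 2282 and 2069 normalized counts in the controls and 982, 599.9 and 433 in the TDP-43iΔEC mice, so every library lay on the side of its label. Its log2 fold change was -1.62 (standard error 0.41, limma unadjusted p = 0.0033, adjusted p = 0.287). The deleted gene itself thus did not pass the threshold, so a marker that did not pass cannot be called unchanged. Normalized counts are deposited counts divided by DESeq2's size factors. The 9 EC markers summed to 9941 to 13874 CPM in every library, against 78.8 to 241 CPM for 6 smooth muscle genes and 0.506 to 27.7 CPM for 6 astrocyte genes. The 5 red blood cell genes summed to 6336 to 9759 CPM in control and 2197 to 2909 CPM in TDP-43iΔEC libraries, without overlap. The share of counts on the 18S ribosomal RNA gene *Rn18s-rs5* was 14.8% to 18.5% in control and 8.04% to 13.6% in TDP-43iΔEC libraries, also without overlap, and its part in the results was not tested. In a multidimensional scaling, control mouse 2 stood apart on the first dimension and TDP-43iΔEC mouse 1 on the second. Control mouse 2 also had the fewest genes with a count (12972, against up to 16557).

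*Efnb2* (ENSMUSG00000001300.17, chromosome 8 of GRCm39 from 8667226 to 8711249, minus strand) encodes ephrin-B2, the membrane ligand that marks arterial ECs. Control mice 1, 2 and 3 had 637, 427 and 614 normalized counts, and TDP-43iΔEC mice 1, 2 and 3 had 422, 490.1 and 172. The TDP-43iΔEC libraries were lower on average, but mouse 2 of that group exceeded control mouse 2. Group means of 559.6 ± 115 and 361 ± 168 (SD, n = 3 mice each) gave -0.64 as log2 fold change (standard error 0.64, 95% interval -2.08 to 0.80, adjusted p = 0.757 from limma). Omitting any 1 mouse left it below 0, from -0.88 to -0.35, and the smallest decrease was that without TDP-43iΔEC mouse 3. Antisense genes overlap 10.3% of its exonic sequence, and the counting did not use the strand.

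*Gja4* (ENSMUSG00000050234.8, chromosome 4 from 127205214 to 127207851, minus strand) encodes Cx37, a connexin that forms gap junction channels between arterial ECs. It was among the best counted markers, with 1150.5, 4309 and 1923 normalized counts in the 3 controls against 1058, 2366 and 1490.05 in the 3 TDP-43iΔEC mice. Control mouse 2 lay far above the other 5 libraries, and the other controls lay within the range of the TDP-43iΔEC libraries. The log2 fold change was -0.55 (standard error 0.53, 95% interval -1.75 to 0.65, limma adjusted p = 0.751). It was -0.07 without control mouse 2, -0.19 without TDP-43iΔEC mouse 1, -0.85 without TDP-43iΔEC mouse 2 and -0.99 without control mouse 1. An antisense gene overlaps 31.8% of its exonic sequence.

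*Gja5* (ENSMUSG00000057123.15, chromosome 3 from 96812009 to 96984732, plus strand) encodes Cx40, the other main gap junction protein of arterial endothelium. The controls had 70.7, 0 and 38.1 normalized counts and the TDP-43iΔEC mice 282, 1.19 and 0. The same genotype therefore held the highest value and a value of 0, and a count of 0 allows up to 0.0662 CPM in control mouse 2 and 0.117 CPM in TDP-43iΔEC mouse 3. Its mean was higher in TDP-43iΔEC mice (94.4 ± 163 against 36.3 ± 35.4, SD, n = 3 each) while the limma log2 fold change was -0.44 with an interval of -7.55 to 6.66. The spread between libraries of the same genotype left the direction of any difference in *Gja5* undetermined.

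*Bmx* (ENSMUSG00000031377.12, chromosome X from 162975838 to 163041195, minus strand) encodes a cytoplasmic tyrosine kinase of the Tec family that is found in arterial endothelium. Normalized counts were 182, 927 and 215 for the controls and 1064, 329 and 1.42 for the TDP-43iΔEC mice. Libraries of TDP-43iΔEC mice were both the highest and the lowest, 749.6-fold apart, the latter from a single deposited count. The fitted log2 difference, -1.28 (SE 1.93, limma adjusted p = 0.846), rested on that library and was 1.04 without it. The group means, 441 ± 421 and 465 ± 544 (SD, n = 3 each), were nearly equal.

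*Sema3g* (ENSMUSG00000021904.7, chromosome 14 from 30939808 to 30952309, plus strand), a secreted class 3 semaphorin made by arterial ECs, was the steadiest of the arterial markers. Normalized counts were 542, 774 and 1024 for the controls and 861, 469 and 589 for the TDP-43iΔEC mice, a 2.19-fold range over all 6 libraries. The log2 fold change was -0.24 (standard error 0.49, limma adjusted p = 0.896), with an interval of -1.35 to 0.88. Leaving out 1 mouse moved it between -0.59 (without TDP-43iΔEC mouse 1) and -0.00066 (without control mouse 3), with -0.48 without control mouse 1 and -0.037 without TDP-43iΔEC mouse 2. Scaling the libraries to 5 EC genes turned its sign (0.027).

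*Gkn3* (ENSMUSG00000030048.6, chromosome 6 from 87360238 to 87365917, minus strand) encodes gastrokine 3, a secreted protein known as a marker of arterial ECs in the mouse brain. Normalized counts were 273, 237 and 497 for the controls and 158, 662 and 76.6 for the TDP-43iΔEC mice. TDP-43iΔEC mouse 2 was above every control library and the other TDP-43iΔEC libraries were below every control library. The log2 fold change was -0.72 (standard error 0.96, 95% interval -2.90 to 1.46, limma adjusted p = 0.826). It was -1.45 without TDP-43iΔEC mouse 2, and -0.36, -0.38 and -0.38 without TDP-43iΔEC mouse 3, TDP-43iΔEC mouse 1 and control mouse 3. Fits with edgeR and DESeq2 gave -0.22 and -0.17, and scaling to 5 EC genes gave -0.33.

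*Nr2f2* (ENSMUSG00000030551.15, chromosome 7 from 70001692 to 70016519, minus strand) encodes COUP-TFII, the transcription factor of venous identity. Normalized counts were 235, 584 and 256 for the controls and 216, 343 and 864 for the TDP-43iΔEC mice, with 1 high library in each genotype. The log2 fold change was -0.01 (standard error 0.75, 95% interval -1.70 to 1.68, limma adjusted p = 0.997). Its sign was positive under every other scaling tried, at most 0.30. Antisense genes overlap 18.3% of its exonic sequence. In all, 867 other genes share a stretch of at least 51 bases with it at 97% identity or more. The longest, of 229 bases, is shared with *B130024G19Rik*, so part of its reads could have been divided with other genes.

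*Ephb4* (ENSMUSG00000029710.16, chromosome 5 from 137348274 to 137376931, plus strand) encodes the venous receptor for ephrin-B2. Normalized counts were 1728, 1686 and 1619.8 for the controls and 1825, 1941 and 3518 for the TDP-43iΔEC mice. The control libraries were close together (1678 ± 54.5) and every TDP-43iΔEC library lay above them, mouse 3 by far the most (2428 ± 946, SD, n = 3 each). The log2 fold change was 0.36 (standard error 0.32, 95% interval -0.37 to 1.10, limma adjusted p = 0.722; exact permutation test, 2-sided p = 0.1, the smallest that 3 mice against 3 can give). A higher value in every TDP-43iΔEC library was found for 7.93% of all genes tested. The log2 fold change was 0.13 without TDP-43iΔEC mouse 3 and 0.57 without TDP-43iΔEC mouse 1. Set against *Pecam1*, the CD31 gene, within each library the groups overlapped (0.0308 to 0.0401 in control and 0.0329 to 0.0797 in TDP-43iΔEC mice). They also overlapped against the EC genes *Cldn5*, *Vwf* and *Tie1*. Against *Kdr*, *Flt1*, *Cdh5*, *Erg* and *Tek*, *Ephb4* was higher in every TDP-43iΔEC library, so the outcome depended on the EC gene used.

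*Lcn2* (ENSMUSG00000026822.15, chromosome 2 from 32274645 to 32278264, minus strand) encodes lipocalin 2, a secreted protein that binds iron-carrying siderophores, is induced in inflammation and is found in ECs of large CNS veins. The controls had 408, 0 and 452 normalized counts, the TDP-43iΔEC mice 1140.4, 1019.6 and 1005. The TDP-43iΔEC libraries were alike and all lay above the control libraries, of which control mouse 2 had no count. Group means of 287 ± 249 and 1055 ± 74.4 (SD, n = 3 each) were 3.68-fold apart. The limma log2 fold change was 4.53 (standard error 1.98, 95% interval 0.03 to 9.03, unadjusted p = 0.0487, adjusted p = 0.537). This fitted value depended on the library at 0, and without control mouse 2 it was 1.25 (unadjusted p = 0.0255, adjusted p = 0.494). The exact permutation test gave the smallest possible 2-sided p of 0.1.

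*Lcn2* is also a product of neutrophils and reactive astrocytes, so their markers were read in the same libraries. The study lists conjugated antibodies to CD31, to the leukocyte antigen CD45 and to the red cell antigen Ter119, and its gates are not given in the sources used here. Of 8 neutrophil genes, 6 had no count in any library (*S100a8*, *S100a9*, *Camp*, *Elane*, *Mpo* and *Csf3r*), and the 8 together summed to 0 to 0.999 CPM in control and 0 to 0.0222 CPM in TDP-43iΔEC libraries, where *Lcn2* had 27.5 to 33.4 CPM. Astrocyte genes summed to 15.4 to 26.9 CPM in control and 0.506 to 27.7 CPM in TDP-43iΔEC libraries. In TDP-43iΔEC mouse 3 the astrocyte sum was 0.506 CPM and *Lcn2* 27.5 CPM, and in mouse 1 they were 27.7 and 33.4 CPM. The part of astrocytes in the *Lcn2* values was not tested. Of the receptors reported for lipocalin 2, *Lrp2* had no count in any library and *Slc22a17* had 0 to 341 normalized counts in control and 129 to 317 in TDP-43iΔEC libraries.

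**Figure D1:**
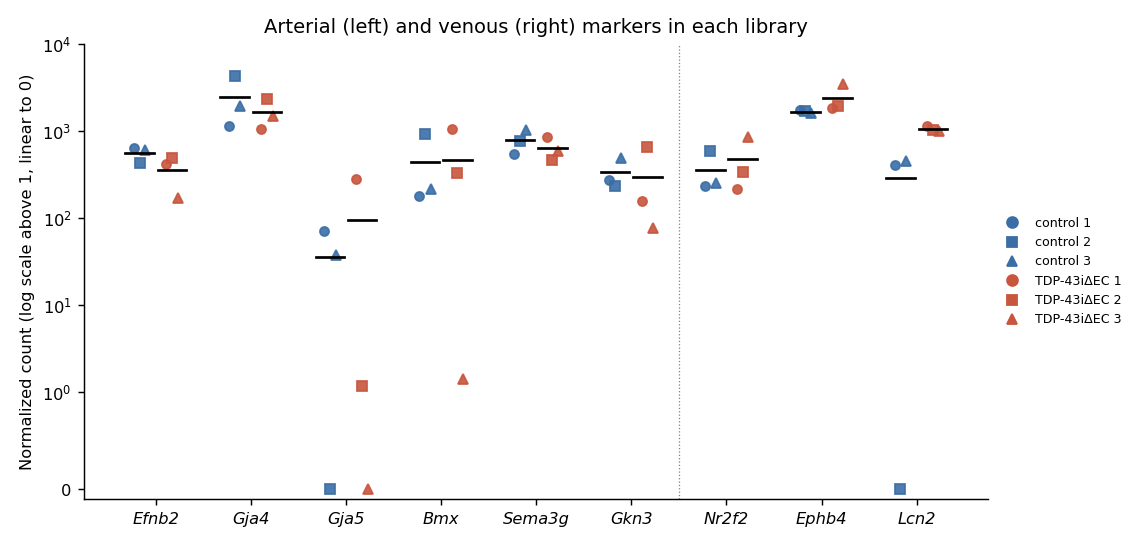
Normalized counts of the 9 markers in each library, on an axis that is logarithmic above 1 and linear down to 0, with symbols for the mouse, colors for the genotype and a black line at each group mean. The groups separate for *Ephb4* and *Lcn2* alone (22.2% of the markers, against 15.0% of all genes tested, in either direction). *Gja5*, *Bmx* and *Lcn2* each have a library at or near 0.

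Single libraries gave the extreme values of several markers at once. TDP-43iΔEC mouse 3 had the lowest value of *Efnb2*, *Bmx* and *Gkn3*, shared the lowest value of *Gja5* (0), and had the highest of *Nr2f2* and *Ephb4*. It was the smallest library, and its smooth muscle genes (78.8 CPM, against 133 to 241 in the other 5 libraries) and fibroblast genes (12.8 CPM, against 35.4 to 43.9) were the lowest as well. Smooth muscle cells surround arteries, and their sums overlapped between genotypes (133 to 195 CPM in control and 78.8 to 241 CPM in TDP-43iΔEC libraries), as did those of 8 pericyte genes (559 to 1224 and 568 to 1417 CPM). The part of these cells in the marker values was not tested. Lymphatic ECs also express *Nr2f2*, and 4 genes of these cells were read. *Lyve1* had no count in any library, *Prox1* at most 17.9 normalized counts and *Pdpn* at most 55.7. *Flt4*, also in the wider venous list below, had 2888 to 8303. The part of lymphatic ECs in the *Nr2f2* values was not tested.

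Levels of different genes can be compared only per transcript length. CPM values divided by the length of the annotated main transcript and rescaled put *Gja4* first with 73.9 ± 45.9 in control mice and *Gja5* last with 0.636 ± 0.643 (SD, n = 3). Between them in control mice came *Gkn3* (20.5 ± 8.18), *Ephb4* (20.3 ± 2.01), *Lcn2* (16.9 ± 14.6), *Sema3g* (8.91 ± 2.38), *Bmx* (7.46 ± 6.79), *Efnb2* (5.91 ± 1.53) and *Nr2f2* (4.38 ± 2.16). In TDP-43iΔEC mice *Lcn2* was the highest of the 9 by the same length-scaled level, at 67.5 ± 8.56, followed by *Gja4* (56.8 ± 26.5) and *Ephb4* (31.9 ± 9.44). In the order of the means over all libraries, the ranges of every pair of neighbors overlapped. *Sema3g* was above *Bmx* in 3 of 6 libraries, and *Nr2f2* was above *Efnb2* in 2 of 6.

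**Figure D2:**
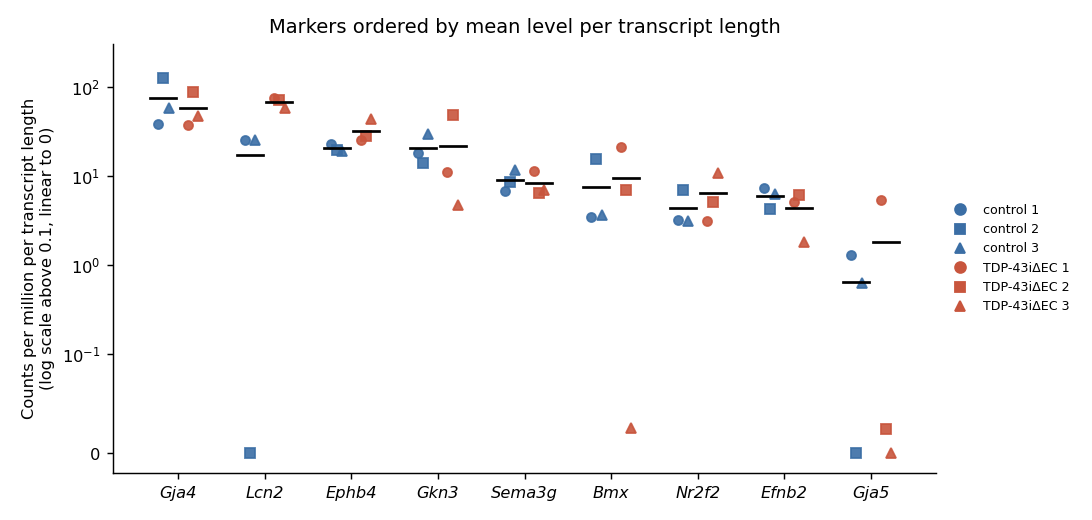
Level per transcript length of each marker by library (CPM rescaled for length), on an axis that is logarithmic above 0.1 and linear down to 0, with black lines at the group means. Markers run from the highest mean over 6 libraries (*Gja4*) to the lowest (*Gja5*), and *Lcn2* shows the widest gap between the genotypes.

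Uncertainty differed widely between the markers. The standard error of the log2 fold change was 0.32 for *Ephb4*, 0.49 for *Sema3g* and 0.53 for *Gja4*, but 1.93 for *Bmx*, 1.98 for *Lcn2* and 3.13 for *Gja5*. The median over the 9 was 0.75, close to the median of 0.71 over all genes tested. The 14 capillary genes described below had a median standard error of 0.17 and a median of 56393 normalized counts, against 460.4 for the 9 markers. The intervals left room for changes of several fold in *Efnb2*, *Gkn3* and *Nr2f2*. They ran from -1.75 to 0.65 for *Gja4*, from -1.35 to 0.88 for *Sema3g* and from -0.37 to 1.10 for *Ephb4*.

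**Figure D3:**
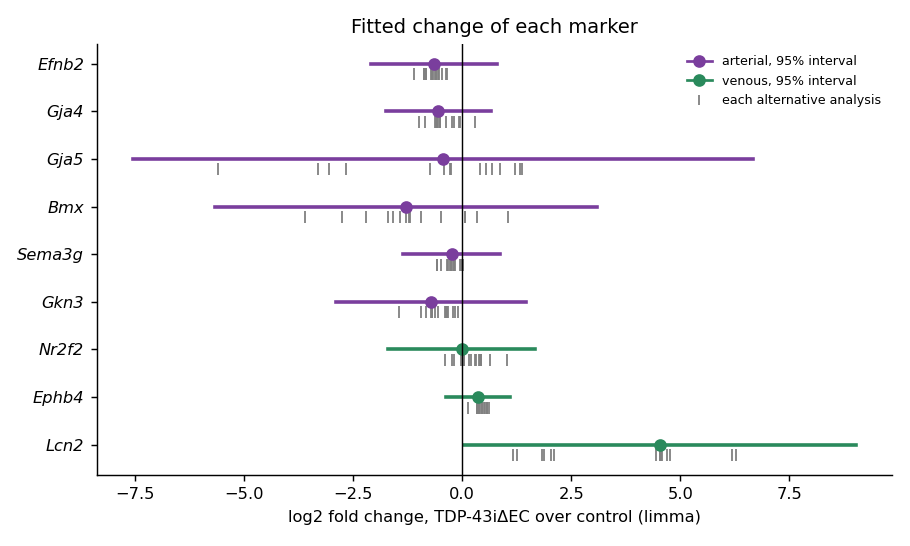
Fitted log2 fold change of each marker (TDP-43iΔEC over control, limma) as a dot with its 95% interval, arterial in purple and venous in green, with a grey tick for each alternative analysis. All intervals but that of *Lcn2*, which starts at 0.03, span 0, and the ticks of *Gja5*, *Bmx* and *Nr2f2*, and by 1 tick each those of *Gja4* and *Sema3g*, lie on both sides of 0.

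Ratios between markers of the same library do not depend on how libraries are scaled. The ratio of *Efnb2* to *Ephb4*, the ligand and the receptor that face each other across arteries and veins, was 0.369, 0.253 and 0.379 for controls 1, 2 and 3, against 0.231, 0.252 and 0.0488 for TDP-43iΔEC mice 1, 2 and 3. The groups did not overlap, but control mouse 2 and TDP-43iΔEC mouse 2 were almost equal (0.2534 and 0.2525), and the ratios are given as a description, without a test. *Sema3g* over *Ephb4* (0.313 to 0.632 in control and 0.167 to 0.472 in TDP-43iΔEC mice) and *Gja4* over *Ephb4* (0.666 to 2.56 and 0.424 to 1.22) overlapped. The summed counts of the 6 arterial genes were 1.20, 2.94 and 1.85 times those of the 3 venous genes for the controls and 1.21, 1.31 and 0.432 times for the TDP-43iΔEC mice. This ratio of sums overlapped between the groups. Against *Pecam1*, *Efnb2* was lower in every TDP-43iΔEC library (0.00389 to 0.00864) than in every control library (0.00981 to 0.0152). *Pecam1* itself was fitted above 0 (0.14), and the other 8 of the 9 EC markers were fitted below 0. Against each of these other 8 EC markers, *Efnb2* overlapped between the groups, so the separation was seen against *Pecam1* alone. The normalized counts of *Efnb2* overlapped between the groups, and scaling to 5 EC genes gave it a fitted value of -0.38.

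**Figure D4:**
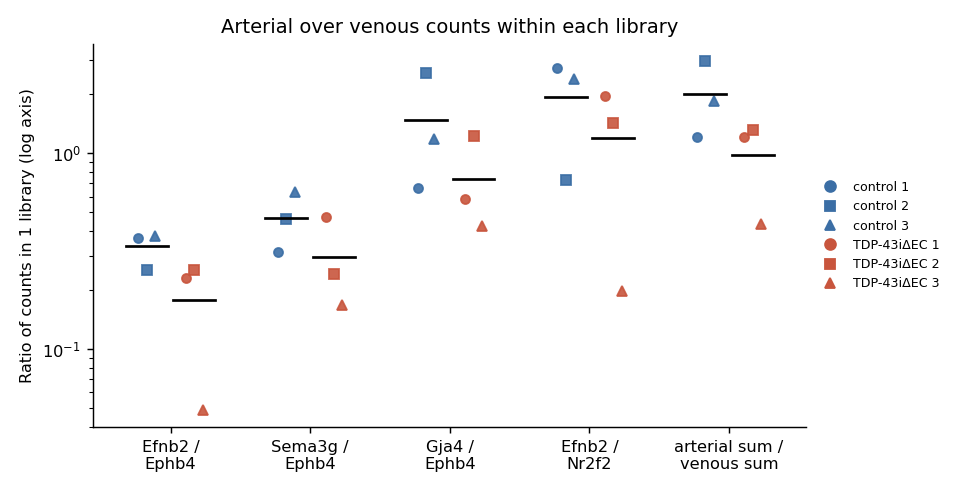
Ratios of arterial to venous counts within each library, on a log axis, with symbols for the mouse, colors for the genotype and black lines at the group means. Only *Efnb2* over *Ephb4* separates the groups, by the narrow margin between 0.2525 and 0.2534, and TDP-43iΔEC mouse 3 is the lowest point of every ratio.

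A wider list of 22 arterial genes held Notch pathway members, transcription factors and secreted proteins of arteries, and 21 of them were tested. In limma 0 of them passed the threshold (0.137% of all genes tested did). An unadjusted p under 0.05 was found for 3, all lower (14.3%, against 9.27% of all genes tested in either direction). edgeR also called 0 (0.00% of all genes tested) and DESeq2 called 1, *Cxcl12* (it called 1.88% of all genes tested). The median log2 fold change was -0.24, with 14 of 21 fitted below 0. *Cxcl12*, *Notch1*, *Sox17* and *Rbpj* were lower in every TDP-43iΔEC library than in every control library, which was true of 19.0% of the list and of 7.10% of all genes tested. *Cxcl12*, a chemokine of arterial and capillary ECs, had 137422 ± 33522 and 77227 ± 8302 normalized counts (SD, n = 3 each; log2 fold change -0.83, standard error 0.19, limma adjusted p = 0.250). *Notch1*, the receptor that maintains the arterial program, had 8617 ± 1209 and 5979 ± 806 normalized counts (log2 fold change -0.54, limma adjusted p = 0.471). *Sox17*, an arterial transcription factor, had 7813 ± 1374 and 5754 ± 194 (-0.46, limma adjusted p = 0.536), and *Rbpj*, the DNA-binding partner of Notch, 967 ± 111 and 563 ± 160.05 (-0.78, limma adjusted p = 0.601). *Nrp1*, the best counted of the list after *Cxcl12*, had 14029 ± 2165 and 14613 ± 405 (0.03). *Cytl1* had no count in any library.

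Among 18 further venous genes, 15 were tested. In limma 46.7% of these had an unadjusted p under 0.05 (4 higher and 3 lower), against 9.27% of all genes tested. *Icam1*, a leukocyte adhesion molecule, was the only gene of the list past the threshold in limma, where 0.0305% of all genes tested passed as higher. It had 3449 ± 836 and 12204 ± 2403 normalized counts (log2 fold change 1.78, standard error 0.24, limma adjusted p = 0.0342). The study had itself picked *Icam1* from these libraries, so its call is not independent evidence. Separately from the libraries, the study reported more Icam-1 protein by immunostaining in vessels of spinal cord, brain and retina. DESeq2 called *Icam1* and *Vcam1* (1.88% of all genes tested were called). edgeR called 0 genes of the list (0.00% of all genes), and 3 had an unadjusted edgeR p under 0.05 (6.47% of all genes). With *Icam1*, *Vcam1*, *Ackr1* and *Sele* were higher in every TDP-43iΔEC library (26.7% of the list, against 7.93% of all genes), *Ackr1* being named after its values were seen. *Vcam1*, an adhesion molecule of activated endothelium, had 382 ± 193 and 1918 ± 615 normalized counts (2.42, limma adjusted p = 0.271). *Sele*, which encodes E-selectin, had 141, 0 and 13.0 normalized counts in control and 183, 596 and 711 in TDP-43iΔEC mice, and *Ackr1*, a chemokine receptor of venules, had 173, 0 and 248 against 667, 714 and 1655. As with *Lcn2*, control mouse 2 had no count of either gene. *Flt4*, a VEGF receptor gene, went the other way (7239 ± 1582 and 4359 ± 1292, log2 fold change -0.73, limma adjusted p = 0.488), as did *Il1r1* (1400 ± 518 and 899 ± 35.3, -0.60), which was also named after its values were seen. The groups overlapped for neither. *Emcn* (-0.18) and *Slc38a5* (-0.60), the best counted genes of the list, overlapped between the groups. The list's median was -0.09, with 7 of 15 fitted above 0, and *Nr2f1*, the paralog of *Nr2f2*, had no count in any library.

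Of the 14 capillary genes, 4 fell in limma in TDP-43iΔEC mice (*Tfrc*, *Car4*, *Slco1c1* and *Itm2a*), where 0.107% of all genes tested did. An unadjusted p under 0.05 was found for 11 of them (9.27% of all genes, either direction), and 11 (78.6%, against 7.10% of all genes) were lower in every TDP-43iΔEC library. Their median log2 fold change was -0.79. edgeR called 0 of them (0.00% of all genes tested), and 11 had an unadjusted edgeR p under 0.05 (6.47% of all genes). DESeq2 called 8 (1.88% of all genes). *Tfrc*, the transferrin receptor gene, changed most (-1.31, standard error 0.17, limma adjusted p = 0.0269), and *Slc2a1*, the glucose transporter gene, had a fitted value near 0 (-0.04, standard error 0.22, limma adjusted p = 0.964). *Tfrc*, *Car4*, *Slco1c1* and *Spock2* (limma adjusted p = 0.0567) are among the genes the study picked from these libraries. *Itm2a* was known to pass from earlier results of these data. The list was chosen with such results known, so none of its counts and shares is independent evidence. The arterial medians of -0.60 and -0.24 lay between the capillary median and 0, and differences between the lists were not tested.

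**Figure D5:**
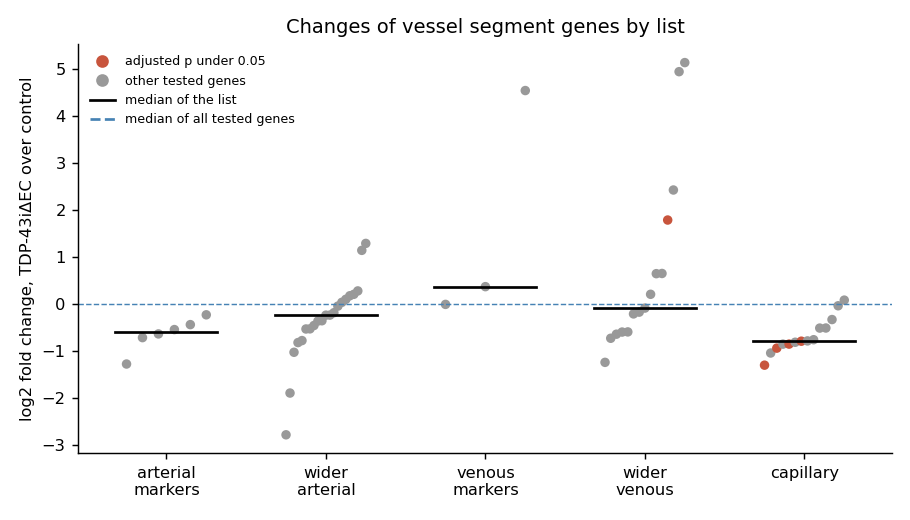
Fitted log2 fold changes (TDP-43iΔEC over control, limma) of the tested genes in 5 lists of vessel segment genes, with a black line at each list's median and a dashed line at the median of all genes tested. Red marks an adjusted p under 0.05, which holds for *Icam1* and 4 capillary genes and for none of the 9 markers.

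The partners and relatives of the markers were read from a list of 31 genes, of which 21 had a count and 14 were tested. In limma 0 passed the threshold (0.137% of all genes tested did), and edgeR and DESeq2 also called 0 (0.00% and 1.88% of all genes). An unadjusted limma p under 0.05 was found for 3, all lower (21.4%, against 9.27% of all genes tested in either direction). Of the other connexins, *Gja1* (Cx43) had 8264 ± 504 normalized counts in controls and 5453 ± 1444 in TDP-43iΔEC mice (log2 fold change -0.73, limma adjusted p = 0.411), and *Gjc1* (Cx45) had 2591 ± 1201 and 1287 ± 162 (-0.99, limma adjusted p = 0.513). Both were lower in every TDP-43iΔEC library, and the groups overlapped for *Gja4* and *Gja5*. Of the 14 tested genes of this list, 4 were lower in every TDP-43iΔEC library (28.6%, against 7.10% of all genes tested). Another 1 was higher in every such library (7.14%, against 7.93%). Of the class 3 semaphorins other than *Sema3g*, *Sema3c* was the best counted, with 9081 ± 3377 and 4572 ± 1897 (-0.99, limma adjusted p = 0.471), *Sema3f* had at most 138 normalized counts, and *Sema3d* and *Sema3e* had no count. Of the ephrin receptors, *Ephb2* had no count and *Ephb1*, *Ephb3* and *Ephb6* were at 0 in 5, 2 and 5 libraries, which leaves *Ephb4* and *Epha4* (513 to 2570 normalized counts) as the tested ones. Of the Tec family kinases, *Btk* had no count, and *Tec* had 112 to 1090 normalized counts with overlapping groups. *Gkn1* and *Gkn2*, the stomach relatives of *Gkn3*, had no count.

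To find genes with a like pattern, log2 CPM values of 10826 other genes with at least 100 normalized counts on average were correlated with each marker over the 6 libraries. These coefficients describe 6 points that share library effects, and with so many genes some must be high. Those most like *Efnb2* were *Phax* (Pearson's r = 0.994), *Cd83* (0.991) and *Sgce* (0.988), and those most like *Ephb4* were *Arl5b* (0.968), *2500002B13Rik* (0.959) and *Uchl1* (0.959). *Nr2f2* was followed most closely by *Hif1a* (0.996), *Zfand6* (0.995) and *Arid4a* (0.967). For *Lcn2*, whose nearest gene was *Kif16b* (1.000 when rounded), 1193 of the 10826 genes had r above 0.9, against 168 for *Efnb2*, 39 for *Nr2f2* and 26 for *Ephb4*. *Lcn2* had no count in control mouse 2 and at least 408 normalized counts in every other library. Its coefficients on the log scale therefore rest largely on that library.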

How the data were processed

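RNA-Seq counts of 6 libraries (3 control, 3 TDP-43iΔEC mice) were used. Per the paper's methods and the submitters' processing notes, the authors used STAR 2.7.8a for mapping (GRCm39) and RSEM 1.3.0 with default options for an estimated count per GENCODE M30 gene. The deposited estimated counts were whole numbers (0 values were not) and were neither scaled nor filtered. SMARTseq2 libraries carry no molecular identifiers, so PCR copies were counted. Positions, transcript lengths and exon overlaps came from GENCODE M39, which matched 98.7% of gene identifiers. All genes were tested in R 4.3.3 with limma 3.58.1 (voom), TMM factors and edgeR 4.0.16's filterByExpr, with Benjamini-Hochberg adjustment over 13107 genes and a threshold of 0.05. The methods state limma with voom but no filter or scaling. Size factors came from DESeq2 1.42.0. The per-gene permutation test used log2(CPM + 0.1). The test code was tested on simulated data.

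The markers and gene lists were chosen with earlier results of these data known. From the wider lists, named genes were those past the threshold, up to 4 with the lowest p among genes without overlap, and the 2 best counted. Alternatives were edgeR, DESeq2, sample quality weights, other scalings, filters, an adjusted p under 0.1, a replicate block, and leaving out mice. After the data were seen, leaving out control mouse 2 and TDP-43iΔEC mouse 1 together was added. Reads, images and behavior were not analysed here.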

Additional observations from a re-analysis of the deposited data

How the results depend on the processing

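None of the 9 markers passed the adjusted threshold of 0.05 in any of the alternatives (adjusted p of at least 0.493 in limma, edgeR or DESeq2), nor at 0.1 in the main limma test. *Efnb2*, *Gkn3*, *Ephb4* and *Lcn2* kept the sign of their log2 fold change in all. Under the replicate block *Gkn3* was -0.11. Scaling by library size or to 5 EC genes moved the median of all genes by 0.19 and 0.24, and the latter gave *Sema3g* 0.027. *Gja5* turned positive with edgeR (1.33), DESeq2 (1.38), the replicate block (0.68), and without control mice 1 (0.86) or 3 (0.42) or TDP-43iΔEC mice 2 (0.54) or 3 (1.20), and with each mouse left out ran from -3.30 to 1.20. *Bmx* turned positive with edgeR (0.057), DESeq2 (0.075), the block (0.35) and without TDP-43iΔEC mouse 3 (1.04), and with each mouse left out ran from -3.60 to 1.04. *Nr2f2* turned positive with edgeR (0.38), DESeq2 (0.40), sample weights (0.43), DESeq2's size factors (0.037), library size (0.19), 5 EC genes (0.30), no filter (0.038), at least 10 counts in every library (0.16), the block (0.32), and without control mouse 2 (0.43) or TDP-43iΔEC mouse 1 (0.63), and with each mouse left out ran from -0.39 to 0.63. With both libraries that stand apart left out, *Gja4* (0.29) and *Nr2f2* (1.03) turned positive and 0 of all genes passed. The cause of these turns was not tested. *Gja5*, *Bmx* and *Lcn2* could not be fitted where every library needed 10 counts.

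The number of all genes past the threshold, 18, became 0 with edgeR (848 had an unadjusted p under 0.05), 247 with DESeq2, 10 by library size, 1 with 5 EC genes, 76 without a filter, 39 with at least 10 counts in every library, 31 at an adjusted p under 0.1, and 0 to 13 with each mouse left out (0 without TDP-43iΔEC mouse 1, 2 without mouse 3, 3 without mouse 2 or without control mouse 1, 10 without control mouse 2). The replicate block gave 22. The correlations of same-numbered mice, as deviations from their group means, were -0.07, -0.13 and -0.02, against -0.04 to 0.12 for the other pairs. With 3 mice per group these values cannot show whether same-numbered mice are related. The labels do not say so either, and the main test treated the mice as unpaired. The median of the 6 arterial markers was -0.15 under the block and ranged from -0.86 to -0.15 over the 16 alternatives.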

Other observations

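The markers at 0 in control mouse 2 (*Gja5* and *Lcn2*) were among a larger set of genes listed at 0 in that library, including *Ackr1*, *Sele*, *Hey2* and *Clu* of the wider lists, while *Gja4* (4309 normalized counts) and *Gjc1* (3959) were at their highest there. TDP-43iΔEC mouse 1 held the highest values of *Gja5* (282 normalized counts), *Bmx* (1064) and *Lcn2* (1140.4).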
